A study of Homo sapiens with 4 samples.

Results

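The target genes of the transcription factor p53 were followed in U87MG glioblastoma cells after silencing of caspase-2. The list holds 33 genes that p53 is known to activate, and a gene was counted as measured where a probe set, a group of short array probes along a transcript, carries its symbol and no other. This held for 31 of the 33 genes, with 1 probe set each, among the 18404 genes that could be named in this way and 32321 probe sets in all, of which 19158 have a single gene symbol. BTG2 and FDXR have no such probe set in the annotation used and were not analysed here. The cells belong to 1 established human cell line. The CASP2 siRNA group holds 2 arrays from cells transfected with an siRNA against CASP2, and the control siRNA group holds 2 arrays from cells transfected with a control siRNA. Both groups therefore share the transfection, and the arrays of a group are called biological replicates in the sample labels. The labels name Dharmacon as the supplier of the siRNAs, and the control that the study's methods list under that supplier is a mutated form of its CASP2 siRNA. How long after transfection the RNA was taken is not stated in these sources.

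p53 is held at a low level in unstressed cells by MDM2, a ubiquitin ligase that marks it for degradation and whose own gene p53 activates, so that the pair forms a feedback loop. DNA damage and other stresses free p53 from MDM2, and it then switches on genes that stop the cell cycle, repair DNA, adjust metabolism or lead to cell death. U87MG cells are known to lack CDKN2A, whose product ARF inhibits MDM2. Caspase-2 is tied to this loop by the PIDDosome, a complex with the p53 target PIDD1 and the adaptor CRADD, in which active caspase-2 can cleave MDM2. Values are log2 values from Robust Multi-Array Average (RMA) normalization, a difference is the mean of the CASP2 siRNA arrays minus the mean of the control siRNA arrays, and its 95% confidence interval comes from limma, whose estimate of the spread is shared across probe sets.

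p53 binds DNA as a tetramer at paired copies of a decamer, and the windows of the RefSeq promoter table, from 250 bases before to 50 after each gene start, were searched for it to show where such letters stand among the genes described below. The search used the p53 consensus decamer, which reads the same on both strands, with its core fixed as CWWG, where W is A or T. A pair was counted with at most 13 bases between the decamers and at most 3 mismatches in all outside this core. Of the 33 genes, 29 are in the table, with 41 windows. A pair was found in 5 windows of 5 genes (12.2% of the members' windows, against 4.49% of all 35116 windows), and these are printed because they place the element for 5 of the genes whose levels follow. A single decamer without mismatch lay in 5 of the 41 windows (12.2%, against 6.63% of all windows). Windows of 1 gene can overlap, and a match is a run of letters, not a site that was shown to bind p53. The decamers are in capitals and the gene start is base 251 of a window. DDB2, with 0 mismatches and 1 base between the decamers, and GDF15, with 3 mismatches and a gap of 0, are given as whole windows, AEN (2 mismatches), SESN1 (3) and SERPINB5 (3, with 5 bases between the decamers) as shorter stretches.

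GDF15 window, GRCh38.p14 chr19:18385908-18386207, forward strand: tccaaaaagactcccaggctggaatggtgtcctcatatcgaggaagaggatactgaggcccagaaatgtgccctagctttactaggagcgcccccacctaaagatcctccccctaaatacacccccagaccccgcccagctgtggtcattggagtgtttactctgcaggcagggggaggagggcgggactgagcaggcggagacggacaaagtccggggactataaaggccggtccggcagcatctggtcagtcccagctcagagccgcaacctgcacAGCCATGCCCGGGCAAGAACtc
DDB2 window, GRCh38.p14 chr11:47214724-47215023, forward strand: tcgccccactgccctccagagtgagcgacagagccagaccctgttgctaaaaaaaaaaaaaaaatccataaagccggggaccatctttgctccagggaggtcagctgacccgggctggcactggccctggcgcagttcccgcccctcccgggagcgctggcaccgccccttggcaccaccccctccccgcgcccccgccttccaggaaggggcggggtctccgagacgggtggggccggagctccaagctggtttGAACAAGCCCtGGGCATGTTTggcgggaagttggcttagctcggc
AEN stretch, GRCh38.p14 chr15:88621286-88621345, forward strand: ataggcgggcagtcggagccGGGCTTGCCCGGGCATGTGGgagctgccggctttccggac
SESN1 stretch, GRCh38.p14 chr6:109008998-109009057, reverse strand: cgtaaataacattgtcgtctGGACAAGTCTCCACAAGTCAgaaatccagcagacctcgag
SERPINB5 stretch, GRCh38.p14 chr18:63476813-63476877, forward strand: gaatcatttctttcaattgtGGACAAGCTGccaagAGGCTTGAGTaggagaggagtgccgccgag

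No such pair was found in these windows for CDKN1A, MDM2 or the other members in the table. The best-known p53 sites of CDKN1A lie farther upstream, and those of MDM2 lie in its first intron. Whether any window of these genes reaches them was not checked, and a decamer without the CWWG core was not counted.

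CASP2 itself was lower on the silenced arrays. The log2 value of CASP2 was 8.79 and 8.52 on the CASP2 siRNA arrays, against 10.74 and 10.69 on the control siRNA arrays. The mean was 8.65 ± 0.19 with the CASP2 siRNA and 10.72 ± 0.039 with the control siRNA (SD, n = 2 each), so that 24.0% of the control level was left (95% confidence interval 18.9 to 30.4%). In RNA from whole cultures, fewer cells at the control level and less RNA in each cell cannot be told apart. The difference was -2.06 (SE 0.13, interval -2.40 to -1.72), and yet its adjusted p was 0.9999 in limma, so that even a 4.17-fold decrease of this precision did not pass the adjusted threshold with 2 arrays a group. The median of all probe sets was 6.18 and 6.28 on the CASP2 siRNA arrays and 6.21 on each control siRNA array. The correlation across probe sets was 0.991 between the CASP2 siRNA arrays and 0.997 between the control siRNA arrays. Of 4 measured markers of the cell line, VIM, CD44 and TNC were far above this median, and NES, an intermediate filament of neural progenitors, lay just above it. Of 7 markers of other cell types, each read by its brightest probe set, 5 were below the median on every array and CD68, a lysosomal protein, was above it. The remaining marker, RBFOX3, was below the median on 3 arrays and just above it on CASP2 siRNA replicate 2, at 6.29. No batch is given in the labels, and the smallest p that an exact permutation test allows with 2 arrays in each group is 0.333 (two-sided).

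The p53 targets stayed close to their control level. Over the 31 measured genes the differences ranged from -0.35 for GDF15 to 0.19 for TP53INP1, 15 lay above 0 and 16 below, and the median was -0.0068, beside -0.00076 over all probe sets with 1 gene symbol. The median size of a difference, whatever its sign, was 0.072, beside 0.078 over the same probe sets. None of the 31 passed an adjusted p of 0.05 in limma, and none of all probe sets did (0%). At an unadjusted limma p under 0.05 the count was also 0 of 31, beside 3.03% of all probe sets. Of the 19158 probe sets with 1 gene symbol, the kind that all members are, 421 had such a p. The thresholds of the study were a fold above 1.5 and a p under 0.05, from another test than limma and with no adjustment named. Applied to the unadjusted p of limma they passed 0 of the 31 and 0.693% of all probe sets. Of the 19158 probe sets with 1 gene symbol they passed 45 in this way. Applied to the test of the study's methods they passed 0 of the 31 and 0.223% of all probe sets. With 31 genes, a share of 3.03% amounts to about 1 gene, so a count of 0 is near the background. The intervals say how large a change could have gone unseen: each of the 31 included 0, and for 27 of them the whole interval lay within 1.5-fold in either direction. The other 4 were GDF15, PLK2, TP53INP1 and TP53I11.

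**Figure D1:**
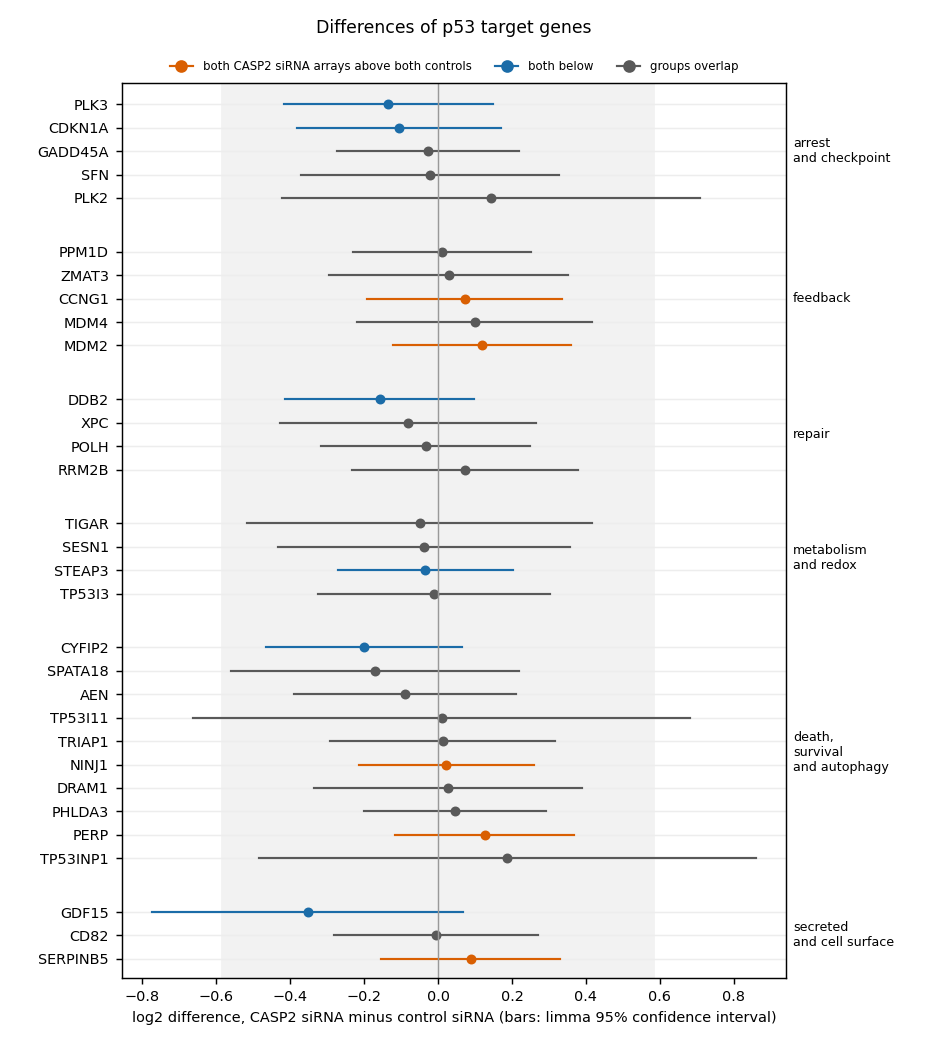
Log2 difference, CASP2 siRNA minus control siRNA (x axis), of the 31 measured p53 target genes (y axis, by role and ordered within it), with limma 95% confidence intervals as bars and the range within 1.5-fold shaded. Orange marks genes with both CASP2 siRNA arrays above both controls, blue those with both below and grey those that overlap. Every interval includes 0, and the bars of GDF15, PLK2, TP53INP1 and TP53I11 leave the shaded range.

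Both CASP2 siRNA arrays lay above both control siRNA arrays for 5 of the 31 genes (16.1%, beside 14.6% of all probe sets with 1 gene symbol) and below both for 6 (19.4%, beside 16.3%). The higher ones were MDM2, CCNG1, PERP, NINJ1 and SERPINB5, and the lower ones CDKN1A, PLK3, DDB2, STEAP3, CYFIP2 and GDF15. Both shares are near the background.

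Among the genes of arrest and checkpoints, CDKN1A encodes p21, the inhibitor of cyclin-dependent kinases through which p53 stops the cell cycle. Its log2 value was 9.64 and 9.48 with the CASP2 siRNA, against 9.68 and 9.66 with the control siRNA. Both silenced arrays were lower, one of them by only 0.027 from the control mean, and the difference was -0.11 (SE 0.10, 95% confidence interval -0.38 to 0.17, adjusted p = 0.9999 from limma). This is 92.9% of the control level, with an interval from 76.7 to 112%. PLK3, a polo-like kinase of the stress response, was at 8.19 and 8.02 with the CASP2 siRNA and at 8.22 and 8.25 with the control siRNA, a difference of -0.14 (SE 0.11, interval -0.42 to 0.15). Its relative PLK2 was split by the silenced arrays, at 9.81 and 9.27, with 9.50 and 9.30 on the control siRNA arrays. One CASP2 siRNA array was thus the highest of the 4 and the other the lowest, and the difference of 0.14 had an interval of -0.42 to 0.71. GADD45A, a stress protein that binds PCNA and p21, had a difference of -0.027 and SFN, the 14-3-3 sigma protein that holds cells in G2, one of -0.022. The 5 genes of this role had a median of -0.027, and 1 lay above 0.

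The feedback genes restrain p53 or its targets, and all 5 had a value above 0, with a median of 0.072. For MDM2 the log2 value was 10.80 and 10.82 with the CASP2 siRNA, against 10.72 and 10.67 with the control siRNA. The silenced arrays differed by only 0.012 and lay above both controls, and the difference was 0.12 (SE 0.0905, interval -0.12 to 0.36, adjusted p = 0.9999 from limma), or 109% of the control level (91.8 to 128%). MDM4, the relative of MDM2 that covers the activation domain of p53, was at 7.51 and 7.28 with the CASP2 siRNA and at 7.27 and 7.33 with the control siRNA, a difference of 0.099 (-0.22 to 0.42). CCNG1, cyclin G1, which recruits a phosphatase to MDM2, was at 11.84 and 11.71 with the CASP2 siRNA and at 11.70 on both control siRNA arrays. Its difference of 0.072 (-0.19 to 0.34) came almost wholly from CASP2 siRNA replicate 1, since replicate 2 was only 0.0060 above the control mean. PPM1D, the phosphatase WIP1 that switches off p53 and its kinases, had a difference of 0.011 (-0.23 to 0.25), and ZMAT3, an RNA-binding zinc finger protein, one of 0.028 (-0.29 to 0.35). Without CASP2 siRNA replicate 1 the median of the feedback genes was -0.0036.

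Among the repair genes, DDB2, which recognizes ultraviolet damage in chromatin and whose start carries the pair of decamers without mismatch, was at 9.65 and 9.55 with the CASP2 siRNA, against 9.75 and 9.77 with the control siRNA. Both silenced arrays lay below both controls, by 0.11 and 0.21 from their mean, and the difference was -0.16 (SE 0.096, interval -0.41 to 0.097, adjusted p = 0.9999 from limma). This is 89.6% of the control level (75.1 to 107%). XPC, the damage sensor of global nucleotide excision repair, was at 6.70 and 6.42 with the CASP2 siRNA and at 6.62 and 6.66 with the control siRNA, a difference of -0.083 (-0.43 to 0.26). POLH, the polymerase that copies past ultraviolet lesions, had a difference of -0.034 (-0.32 to 0.25). RRM2B, the p53-induced subunit of ribonucleotide reductase, had 0.074 (-0.23 to 0.38), with the control siRNA arrays 0.20 apart. The median of the 4 genes was -0.058, and without CASP2 siRNA replicate 2 it was 0.056.

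The 4 measured genes of metabolism and redox balance all had values below 0, none beyond -0.050. SESN1, sestrin 1, a stress protein that restrains mTORC1, was at 7.57 and 7.21 with the CASP2 siRNA and at 7.41 and 7.45 with the control siRNA, a difference of -0.039 (-0.43 to 0.36). TIGAR, a fructose bisphosphatase that slows glycolysis, was at 8.32 and 7.87 with the CASP2 siRNA and at 8.10 and 8.19 with the control siRNA, a difference of -0.050 (-0.52 to 0.42). In both genes replicate 1 of the silenced cells was above both controls and replicate 2 below both. TP53I3, a quinone oxidoreductase, showed the same order at -0.011 (-0.32 to 0.30), while STEAP3, a ferrireductase of endosomes, was nearly level on all 4 arrays, between 10.20 and 10.24, with a difference of -0.035 (-0.27 to 0.20). The median of the role was -0.037. It was 0.12 without CASP2 siRNA replicate 2 and -0.17 without CASP2 siRNA replicate 1.

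The largest role, with 10 genes, is that of death, survival and autophagy, and 7 of its genes lay above 0 with a median of 0.017. CYFIP2, a p53-inducible partner of the WAVE actin complex, was at 8.17 on both CASP2 siRNA arrays, against 8.30 and 8.44 on the control siRNA arrays, a difference of -0.20 (SE 0.099, interval -0.47 to 0.064, adjusted p = 0.9999 from limma). Here the silenced arrays agreed and the controls lay 0.13 apart, without overlap. PERP, a membrane protein of desmosomes that takes part in p53-dependent death, was at 10.32 and 10.37 with the CASP2 siRNA and at 10.24 and 10.20 with the control siRNA, a difference of 0.13 (SE 0.091, -0.12 to 0.37). SPATA18, which takes part in the removal of damaged mitochondria, was at 7.78 and 7.44 with the CASP2 siRNA and at 7.76 and 7.81 with the control siRNA. Its difference of -0.17 (SE 0.15, -0.56 to 0.22) rested on CASP2 siRNA replicate 2 and was 0.00043 without it. TP53INP1, a nuclear protein that favours the proapoptotic modification of p53, was split most widely of all members, at 8.61 and 7.93 with the CASP2 siRNA and at 8.18 and 7.99 with the control siRNA, a difference of 0.19 with an interval of -0.49 to 0.86. TP53I11 was split the other way, at 5.87 and 6.54 with the CASP2 siRNA and at 6.09 and 6.30 with the control siRNA, a difference of 0.010 (-0.66 to 0.68). Its signal was modest, below the array median on 2 arrays. Of the others, AEN, a p53-induced nuclease, had -0.089 (-0.39 to 0.21) and PHLDA3, an inhibitor of AKT, 0.046 (-0.20 to 0.29). DRAM1, a lysosomal protein of autophagy, had 0.027 (-0.34 to 0.39), NINJ1, which ruptures the membrane of dying cells, 0.022 (-0.21 to 0.26) and TRIAP1, an inhibitor of apoptosis, 0.012 (-0.29 to 0.32).

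Among the secreted and surface products, GDF15, a stress cytokine of the TGF-beta family whose start carries a pair of decamers, had the largest difference of all members. Its log2 value was 8.93 and 9.32 with the CASP2 siRNA, against 9.46 and 9.50 with the control siRNA. Both silenced arrays were lower, by 0.55 and 0.16 from the control mean, and the difference was -0.35 (SE 0.16, interval -0.77 to 0.069, adjusted p = 0.9999 from limma). This is 78.3% of the control level, with an interval from 58.5 to 105%. With 1 array left out in turn the difference ranged from -0.55 to -0.16, the ends being the 2 silenced arrays taken alone. CD82, a tetraspanin that restrains migration, had -0.0068 (-0.28 to 0.27). SERPINB5, maspin, lay below the lower quartile of every array, between 3.77 and 3.90, and had a difference of 0.088 (-0.15 to 0.33) at this low signal.

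**Figure D2:**
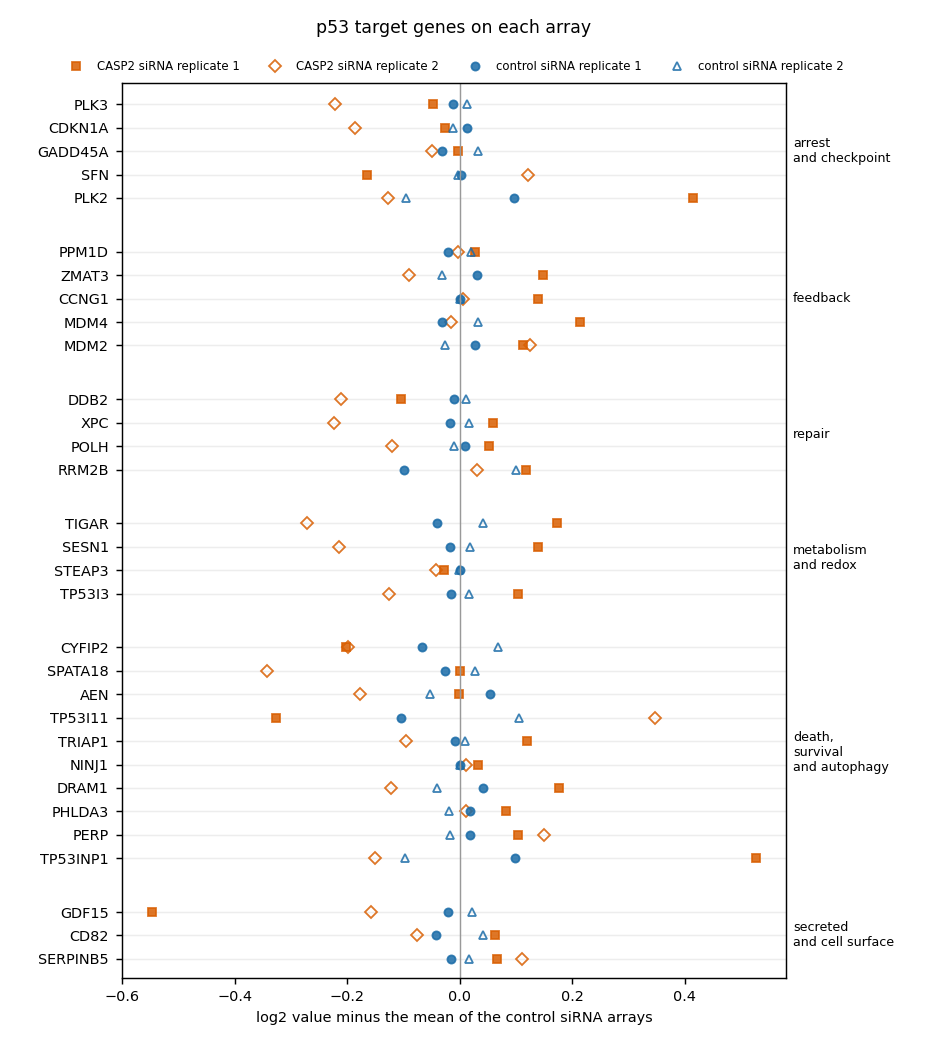
Log2 value of every array after subtraction of the control siRNA mean (x axis) for the 31 measured p53 target genes (y axis, by role), with filled squares and open diamonds for the CASP2 siRNA arrays and filled circles and open triangles for the control siRNA arrays. The CASP2 siRNA arrays spread more widely than the controls for most genes, from -0.55 for GDF15 to 0.53 for TP53INP1, both in replicate 1.

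The difference that the members showed most often was one between the silenced arrays themselves. CASP2 siRNA replicate 1 lay above replicate 2 in 24 of the 31 genes, with a median of replicate 1 minus replicate 2 of 0.14. The same median was 0.020 over all probe sets with 1 gene symbol and 0.078 over those above the array median on every array. Replicate 1 was the higher one in 77.4% of the members, 53.4% of all probe sets with 1 gene symbol, and 68.1% of those above the array median on every array. The order was thus commoner among bright probe sets in general. Of the 29 members above the array median on every array, 24 had this order (82.8%). In 11 members (35.5%) replicate 1 was above both controls and replicate 2 below both, as in PLK2, TIGAR, SESN1, XPC and TP53INP1, beside 16.6% of all probe sets with 1 gene symbol and 22.6% of those above the array median. The reverse order was found in 2 members, SFN and TP53I11 (6.45%, beside 17.8% and 10.7%). GDF15 also had replicate 1 lower, but with both arrays below the controls. The gap between the CASP2 siRNA arrays was wider than that between the control siRNA arrays in 26 of the 31 genes (83.9%). This share was 73.3% of all probe sets with 1 gene symbol and 75.2% of those above the array median on every array. In the members the median size of the gap was 0.17 for the CASP2 siRNA arrays and 0.041 for the control siRNA arrays. Over all probe sets with 1 gene symbol this size was 0.168 for the CASP2 siRNA arrays and 0.0729 for the control siRNA arrays. Over those above the array median on every array it was 0.145 and 0.0599. The members' gap between the silenced arrays was thus near that of all probe sets with 1 gene symbol and somewhat wider than that of the bright ones. Their gap between the control siRNA arrays was smaller than in either set. The cause of this split was not tested.

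**Figure D3:**
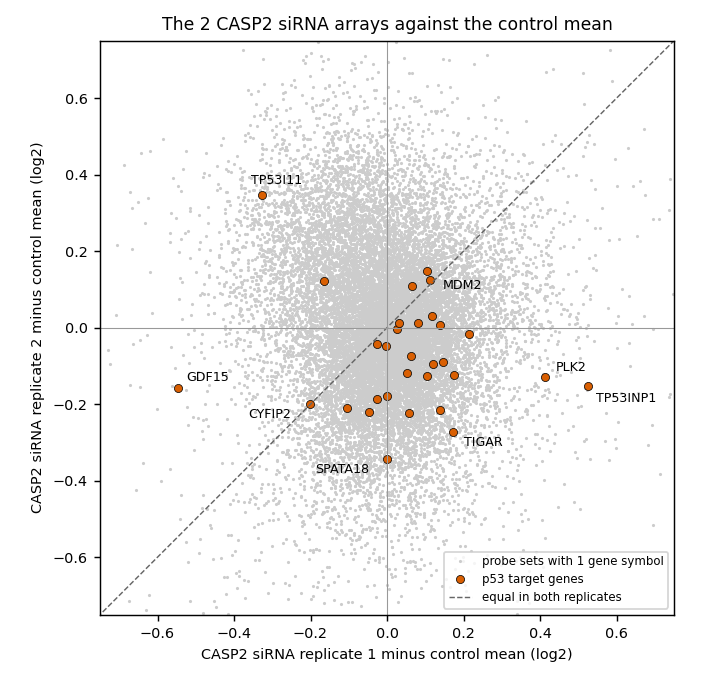
Log2 value of CASP2 siRNA replicate 1 (x axis) and replicate 2 (y axis), each minus the control mean, for the p53 target genes (orange) and all probe sets with 1 gene symbol (grey, of which 111 lie beyond 0.75 in at least 1 direction and are not drawn). Most target genes lie right of and below the dashed line of equality, with TP53INP1 and PLK2 farthest right and GDF15 farthest left.

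Further genes of the pathway were read from lists, each gene by its brightest probe set. Of 24 regulators of p53, 21 were measured, of which 11 lay above 0 with a median of 0.0024, and none had an unadjusted p under 0.05. HUWE1, a ubiquitin ligase of p53, had 0.13 (-0.13 to 0.40), RPL11, a ribosomal protein that binds MDM2, -0.12 (-0.41 to 0.17), and CHEK2, a kinase that activates p53, -0.25 (-0.99 to 0.49). CDKN2A was between 5.72 and 5.80 on the 4 arrays, below the median of each but above the lower quartile of each. Whether the gene is absent from these cells was not tested. Of 11 apoptotic p53 targets, 8 lay above 0 with a median of 0.073, and none had an unadjusted p under 0.05. SIVA1, a death receptor adaptor, had -0.24 (-0.50 to 0.021), FAS, a death receptor, -0.16 (-0.45 to 0.13) and PMAIP1, the BH3 protein NOXA, 0.12 (-0.12 to 0.36). PIDD1, the scaffold of the PIDDosome, was at 7.92 and 8.07 with the CASP2 siRNA and at 7.92 and 7.88 with the control siRNA, a difference of 0.092 (-0.18 to 0.37).

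Of 24 further p53 targets measured out of 25, 13 lay above 0 with a median of 0.010. An unadjusted limma p under 0.05 was found for 1 in 24, beside 3.03% of all probe sets and 421 of the 19158 with 1 gene symbol. The gene was ABHD4, a hydrolase of phospholipids, at 9.73 and 9.77 with the CASP2 siRNA, against 9.41 and 9.34 with the control siRNA. The silenced arrays agreed closely and lay above both controls, and the difference was 0.37 (SE 0.093, interval 0.12 to 0.62, adjusted p = 0.9999 from limma), or 129% of the control level. ACER2, a ceramidase, had 0.36 (-0.012 to 0.74) at a level below the median of every array, and SUSD6 had -0.22 (-0.57 to 0.13). Of 16 genes that p53 represses through p21 and the DREAM complex, 15 were measured, 5 lay above 0 and 10 below, with a median of -0.058, and none had an unadjusted p under 0.05. CDK1, the kinase of mitotic entry, had -0.24 (-0.67 to 0.20), KIF23, a kinesin of cytokinesis, -0.15 (-0.45 to 0.14) and MYBL2, an activator of mitotic genes, 0.14 (-0.14 to 0.41). The order of the silenced arrays differed between the lists. CASP2 siRNA replicate 1 lay above replicate 2 in 14 of these 15 genes (93.3%), 18 of the 24 further targets (75%), 17 of the 21 regulators (81%) and 5 of the 11 apoptotic targets (45.5%), beside the 53.4% of all probe sets with 1 gene symbol and 68.1% of the bright ones.

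**Figure D4:**
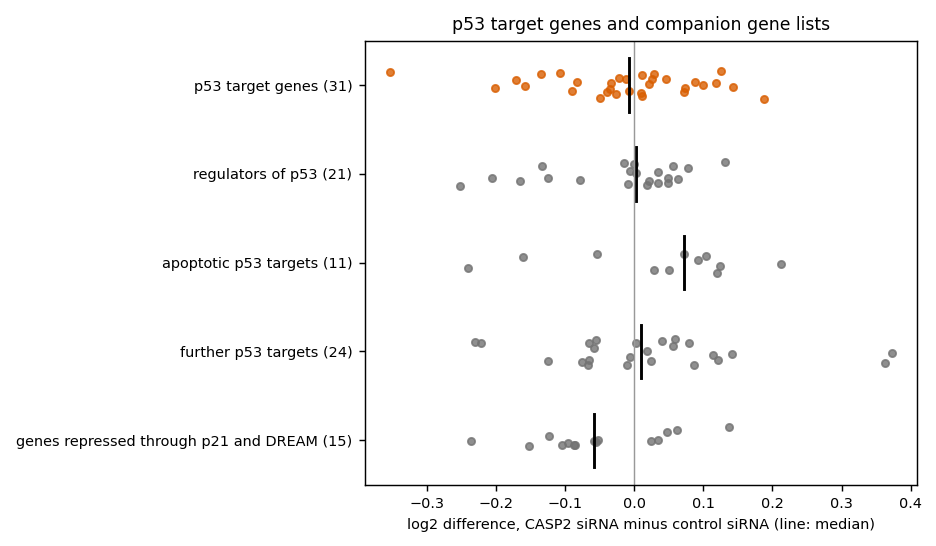
Log2 difference, CASP2 siRNA minus control siRNA (x axis), of each gene in the p53 target list (orange) and the companion lists (grey), with the number of measured genes in parentheses and the median as a line. The medians lie between -0.058 for the genes repressed through p21 and DREAM and 0.073 for the apoptotic targets, and GDF15 is the lowest point at -0.35.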

How the data were processed

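Total RNA of U87MG cells was hybridized to Affymetrix Human Gene 1.0 ST arrays, 1 array per sample. The authors normalized them by RMA, version not given in the sources used here, which corrects the background, brings the arrays to a common distribution of probe intensities and sums up each probe set, and the deposited table holds log2 values. RMA compresses folds near background and removes a shift common to all genes, and the number of arrays limits the precision. Symbols came from the platform annotation, checked by gene ID against RefSeq (GRCh38.p14) for 19128 of 19158 probe sets with 1 symbol. The 1388 with several symbols and the 11775 without one entered the fit and stay unnamed.

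All 32321 probe sets were fitted with limma 3.58.1 (lmFit, eBayes) in R 4.3.3 and Benjamini-Hochberg adjustment across the whole table (two-sided), with 2.47 prior and 2 residual degrees of freedom. The fits were tested on simulated data. p-values measure the spread between these arrays only, since the labels do not say how the replicates were grown. The members, roles and lists were chosen with earlier results of these data known. Full statistics are given for the 8 members with the smallest unadjusted p and for CASP2, and each companion list is illustrated by its 3 lowest p-values. PIDD1, CDKN2A and the split of the silenced arrays were singled out after their values were seen. Alternatives were the methods' t-test (pooled standard deviation raised to its median), other eBayes options, a replicate block, 2 further normalizations, a filter on dim probe sets, other choices of probe set and each array left out. Promoter windows came from the RefSeq table of GRCh38.p14.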

Additional observations from a re-analysis of the deposited data

How the results depend on the processing

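No member passed an adjusted p of 0.05 or the thresholds of the study under any alternative run, including the methods' t-test and the fit with the replicate number as a block (replicate block, 0 members each). The labels do not say whether arrays with the same replicate number form a pair. The gaps within the groups correlated at 0.020 over all probe sets and at 0.53 over the members. With only 2 possible pairs these values cannot decide whether the arrays were paired. Members with an unadjusted limma p under 0.05 numbered 1 (GDF15) with the trend and robust options of eBayes, where 3.83% of all probe sets passed, and 1 (GDF15) with each array centred on its median, where 2.45% passed. Without CASP2 siRNA replicate 1 there were 2 (TIGAR and SPATA18, where 19.4% of all probe sets passed) and without CASP2 siRNA replicate 2 there were 3 (GDF15, PLK2 and TP53INP1, where 10.9% passed). With each array left out in turn this count was thus 0 to 3. Members whose groups did not overlap numbered 7 of 31 with each array centred on its median, where 26.2% of all genes did so, and 14 to 28 with an array left out, where 50.5 to 82.4% of all genes did so, since fewer arrays overlap less. With limma the thresholds of the study passed 224 of all probe sets, 72 with the methods' t-test and 275 to 990 with an array left out, and an unadjusted p under 0.05 passed 979, 100 with the methods' t-test and 354 to 6257 with an array left out. With the trend and robust options the adjusted p of CASP2 was 0.062.

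With each array left out, the median difference ranged from -0.096 to 0.062 over all members, from -0.13 to -0.024 for arrest, -0.0036 to 0.14 for feedback, -0.17 to 0.056 for repair, -0.17 to 0.12 for metabolism, -0.11 to 0.057 for death, survival and autophagy and -0.075 to 0.062 for secreted and surface genes. The ends of most ranges are the fits without 1 of the CASP2 siRNA arrays. Without dim probe sets the last median was -0.18, as SERPINB5 dropped out of its 3 genes. The difference of CASP2 was -2.20 to -1.93. The sign of SPATA18 turned without CASP2 siRNA replicate 2, with values of -0.34 to 0.00043 as each array was left out, and the other 7 members with full statistics kept theirs in all alternatives.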
